A study of Mus musculus with 8 samples.

Results

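A set of 9 marks and regulators of hair follicle stem cells, Cd34, Dkk3, Fst, Sox9, Lhx2, Tcf7l1, Lgr5, Nfatc1 and Postn, was followed in mouse epidermis labelled as lacking or carrying Ovol1, with and without imiquimod (IMQ). The genes were taken by symbol, and all 9 were present among the 16902 symbols of both expression tables. Dispase was used to lift the epidermis off the back skin of CD1 mice, and its polyadenylated RNA was sequenced. Ovol1 encodes a zinc-finger repressor of stratified epithelia, and IMQ is a Toll-like receptor agonist that causes psoriasis-like inflammation on mouse skin. The 4 groups held 2 libraries each, 1 from a female and 1 from a male. They were Ovol1 -/- mice with IMQ, Ovol1 +/+ controls with IMQ, untreated Ovol1 -/- mice and untreated Ovol1 +/- controls. These are the genotypes of the sample labels; the tables' column headers call the controls of both conditions WT, so whether the untreated controls carried 1 functional Ovol1 allele or 2 is not settled here. The sources used here do not give age, hair cycle stage, the IMQ schedule or whether the deletion was confined to a tissue. Nothing in the labels says whether a library pooled animals.

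Hair follicle stem cells rest in the bulge, a niche of the outer root sheath below the sebaceous gland, and are called on to rebuild the follicle in each hair cycle and to help close wounds. Their quiescence depends on BMP signals and their activation on Wnt signals. The transcription factors Sox9, Lhx2, Tcf7l1 and Nfatc1 hold the bulge state in mice. Cd34 marks the bulge surface, Lgr5 marks the lower bulge and hair germ, and the secreted proteins Dkk3, follistatin (Fst) and periostin (Postn) are part of the bulge's output or matrix. Several of the 9 are not limited to the bulge: Cd34 is also made by endothelial and mast cells, and Postn by dermal fibroblasts.

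In these data Fst, which encodes a secreted trap of activins and BMPs, was 1.96 times as high in the labelled knockouts as in the controls under IMQ. It missed the threshold in the model without sex (limma adjusted p = 0.0915). With sex as a block, which called 2.45% of all genes under IMQ, it passed (0.0430). DESeq2, which called 1242 of 14614 genes there, also passed it (adjusted p = 0.00269). The edgeR test missed it without and with that block (0.10 and 0.0509). Limma missed it too with plain moderation (0.168) and with each table fitted alone (0.235). In untreated epidermis all 9 genes had lower means in the labelled knockouts than in the controls, by a log2 fold change of -0.05 to -0.58, and none passed the test. Of all tested genes 50.5% had a negative value there, as did 17 of 20 other follicle stem and 12 of 12 basal interfollicular genes. Sox9, Lgr5 and Postn changed sign there when 1 library was left out. Nfatc1 and Lgr5 were lower in IMQ than in untreated epidermis in both genotypes, at 0.389 and 0.474 times in labelled knockouts and 0.414 and 0.50 times in controls, while Tcf7l1 was 1.53 times as high in labelled knockouts and 1.42 times in controls.

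Promoter sequence is shown for Cd34, Lhx2 and Tcf7l1, which, with Dkk3 and Fst, were lower in both untreated labelled knockouts than in both controls. RefSeq's promoter table for GRCm38.p6 matched 4 of the 9 genes, these 3 and Postn. Each run is the 250 bases before the RefSeq start, 5′ to 3′ on the gene's strand.
Cd34 (chr1:194938571-194938820, plus strand): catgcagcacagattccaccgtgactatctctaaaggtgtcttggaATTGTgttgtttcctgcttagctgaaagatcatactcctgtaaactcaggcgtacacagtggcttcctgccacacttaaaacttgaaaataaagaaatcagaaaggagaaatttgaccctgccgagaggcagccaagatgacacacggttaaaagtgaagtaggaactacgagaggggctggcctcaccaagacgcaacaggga
Lhx2 (chr2:38339031-38339280, plus strand): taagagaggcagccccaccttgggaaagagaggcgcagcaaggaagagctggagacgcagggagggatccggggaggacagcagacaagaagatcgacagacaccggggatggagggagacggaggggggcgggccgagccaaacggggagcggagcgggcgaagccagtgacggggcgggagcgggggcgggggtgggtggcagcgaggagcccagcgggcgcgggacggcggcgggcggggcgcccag
Tcf7l1 (chr6:72789046-72789295, minus strand): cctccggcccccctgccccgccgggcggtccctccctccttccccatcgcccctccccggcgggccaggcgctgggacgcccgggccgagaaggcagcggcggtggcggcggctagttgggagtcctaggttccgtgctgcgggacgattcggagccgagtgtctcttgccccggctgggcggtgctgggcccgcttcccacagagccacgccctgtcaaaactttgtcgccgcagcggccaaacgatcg
Capitals mark the only match to any of 3 short motifs searched on both strands: the OVO core CCGTTA, the LEF/TCF core CTTTGA and the SOX core ACAAT. That match, in Cd34, is the reverse complement of the SOX core. No motif match overlapped another. Among 32851 promoter windows of the same length, 2.18% held CCGTTA, 13.8% CTTTGA and 27.7% ACAAT. Postn, whose sequence is not shown, held none of the 3. The Lhx2 and Tcf7l1 windows were 72.8% and 73.6% G or C, against 46.4% for Cd34 and a median of 52.4% over all windows. The RefSeq start of Tcf7l1 lies 209 bases from its GENCODE start, so its window falls largely within the GENCODE gene. The absence of these letters from a window says nothing about binding of a factor elsewhere.

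The libraries held 28.6 to 43.1 M reads assigned to genes. Ovol1 itself had 13457 and 13077 normalised counts in the labelled knockouts under IMQ, against 7635 and 9556 in the controls. In untreated epidermis it had 27433 and 26601, against 16629 and 14582. Its RNA was thus higher, not lower, in the libraries labelled -/-, and 1 value per gene cannot show which exons were read, so the genotype is given as labelled. A normalised count is a read count over its library's size factor. The IMQ and the untreated table were scaled separately. Krt14, the keratin of basal keratinocytes and a check of the epidermal label, stood at 4448 to 8375 CPM, a gene's reads scaled to a common library total. The bulge and basal keratin Krt15 ran from 704 to 4668 CPM.

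Genotype was compared with limma over all 14614 genes with a mean of at least 10, with Benjamini-Hochberg adjustment across them. An adjusted p under 0.05 called a gene. Under IMQ limma called 64 genes, 0.438% of those tested, and none of the 9. In untreated epidermis it called 0 genes (0%), with 652 at an unadjusted p under 0.05; edgeR called 0 and DESeq2 called 89, none of them among the 9. A block for sex made that 0.0547% of all genes, again none of the 9. The limma p-values rest on 1 spread per gene, pooled over the 4 groups of 1 female and 1 male library each. With sex as a block, the shift between the sexes that the groups share is taken out of that spread. In whole epidermis, fewer cells of a type and less RNA per cell cannot be told apart.

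Cd34, the surface sialomucin that marks bulge cells, had 1716 and 1054 normalised counts in the female and male labelled knockouts under IMQ, against 1615 and 1918 in the controls. The groups overlapped, the female pair differing little and the male pair more. Its log2 fold change was -0.39 (SE 0.23, limma adjusted p = 0.347), made of 0.09 for females and -0.86 for males. Without IMQ it had 1973 and 2333 in the labelled knockouts, against 3306 and 3126 in the controls. Both labelled knockouts lay below both controls there, with a log2 difference of -0.58 (SE 0.23, adjusted p = 1.00), the widest of the 9 in untreated epidermis. Endothelial markers, of which 14 of 14 had values, summed to 12.8 and 18.5 CPM in the labelled knockouts under IMQ, against 49.1 and 13.2 CPM in the controls. In untreated epidermis they summed to 10.3 and 8.32 CPM, against 7.10 and 6.24 CPM, higher in the labelled knockout of each sex. Robo4 was the endothelial marker listed at 0 in some libraries. Mast cell markers, of which 8 of 10 had values and none was at 0, summed to 12.9 and 19.1 CPM in the labelled knockouts under IMQ, against 29.0 and 15.9 CPM in the controls. Untreated they summed to 26.7 and 30.6 CPM, against 29.2 and 36.4 CPM, lower in the labelled knockout of each sex. Most of each untreated sum came from Mrgprb2, the list's most abundant gene, itself lower in the labelled knockout of each sex. Of the 6 tested mast cell genes, 4 had a positive log2 fold change untreated and 2 a negative one (median 0.06). Gata2, a factor of mast and endothelial cells, was among the 4. It had 93.2 and 76.2 normalised counts in the untreated labelled knockouts, against 6.05 and 6.44 in the controls. Its log2 fold change was 3.56 (SE 0.84, limma adjusted p = 0.479). The lists' part in the Cd34 values was not tested.

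Postn, which encodes the matrix protein periostin, had 19406 and 12955 normalised counts in the labelled knockouts under IMQ, against 14031 and 13905 in the controls. Untreated, it had 28962 and 17909 in the labelled knockouts, against 28052 and 19830 in the controls. The female library was above the male library in all 4 groups, though by little in the IMQ controls, and the genotypes overlapped in both tables. The log2 fold change was 0.18 under IMQ (SE 0.29, limma adjusted p = 0.747) and -0.05 untreated (SE 0.29, adjusted p = 1.00). Dermal fibroblast markers, of which 19 of 19 had values, were higher in the male of each group. They summed to 259 CPM in the female and 2215 CPM in the male labelled knockout under IMQ, and to 459 and 3495 CPM in the controls. In untreated epidermis they summed to 199 and 785 CPM in the labelled knockouts and to 342 and 742 CPM in the controls. The part of fibroblasts in the Postn values was not tested. Twist2 was the fibroblast marker listed at 0 in 1 library.

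**Figure D1:**
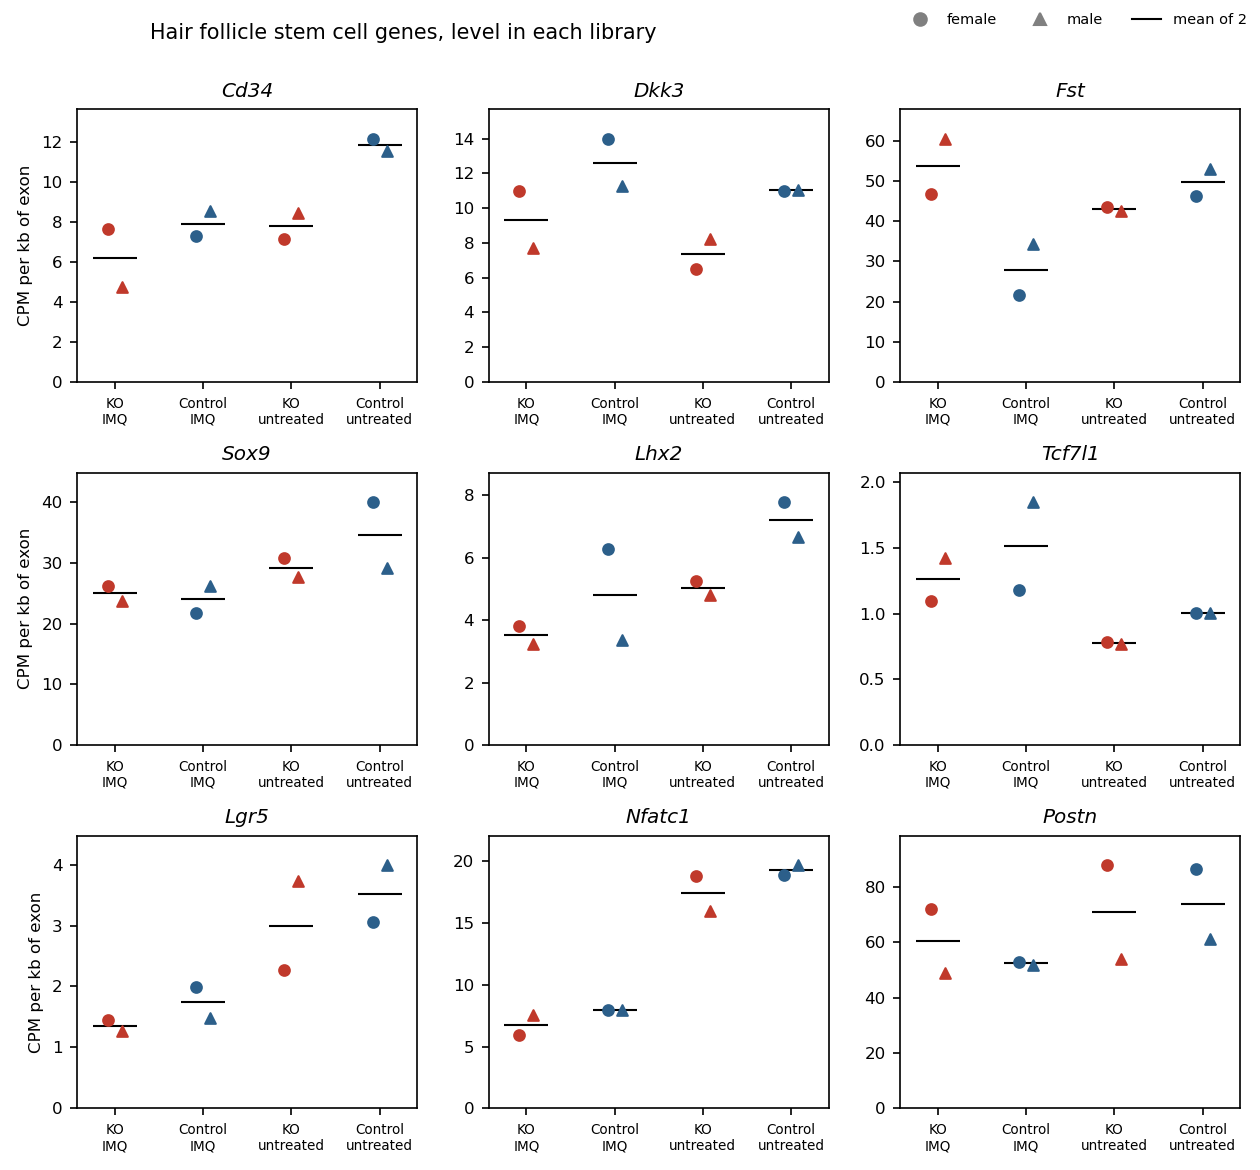
Level of each gene in every library, as CPM (scaled by TMM over 8 libraries) per kilobase of exon, with a circle for the female, a triangle for the male and a bar for the mean of 2 libraries. Fst is lower in the IMQ controls (21.6 and 34.3) than in the 6 other libraries (42.4 to 60.5), and Nfatc1 is lower in all 4 IMQ libraries (5.95 to 7.95) than in all 4 untreated ones (16.0 to 19.7).

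Of the transcription factors that hold the bulge state, none passed the test in either table. Sox9, an HMG-box factor needed to form and keep the bulge, had 3354 and 3000 normalised counts in the labelled knockouts under IMQ, against 2740 and 3347 in the controls. Untreated, it had 4817 and 4349, against 6185 and 4480. The groups overlapped in both tables, with log2 fold changes of 0.07 (SE 0.18, limma adjusted p = 0.859) under IMQ and -0.20 (SE 0.18, adjusted p = 1.00) untreated.

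Lhx2, a LIM-homeodomain factor of the bulge and hair germ, had 518 and 433 normalised counts in the labelled knockouts under IMQ, against 840 and 454 in the controls. The IMQ groups overlapped, the female control standing well above the other 3 libraries. In untreated epidermis it had 873 and 805 in the labelled knockouts, against 1278 and 1087 in the controls, with no overlap. The log2 fold changes were -0.38 (SE 0.27, limma adjusted p = 0.437) under IMQ and -0.49 (SE 0.27, adjusted p = 1.00) untreated.

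Tcf7l1, the Wnt pathway repressor also known as Tcf3 that keeps follicle progenitors undifferentiated, was the lowest of the 9 and rested on 111 to 196 reads per library. It had 133 and 170 normalised counts in the labelled knockouts under IMQ, against 141 and 224 in the controls. Untreated it had 116 and 114, against 147 and 147. Only the untreated groups did not overlap, and the 2 libraries of each of those groups were close to each other. The log2 fold changes were -0.24 (SE 0.27, limma adjusted p = 0.632) under IMQ and -0.35 (SE 0.27, adjusted p = 1.00) untreated.

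Nfatc1, the calcium- and calcineurin-dependent factor that keeps bulge cells quiescent, had 1373 and 1719 normalised counts in the labelled knockouts under IMQ, against 1810 and 1825 in the controls. The labelled knockouts lay below the controls there. In untreated epidermis the groups overlapped, at 5321 and 4544 in the labelled knockouts against 5265 and 5473 in the controls. The log2 fold changes were -0.24 (SE 0.14, limma adjusted p = 0.348) under IMQ and -0.13 (SE 0.14, adjusted p = 1.00) untreated.

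Among the signalling genes, Dkk3 was lower in both labelled knockouts than in both controls under each condition. Dkk3, a secreted member of the Dickkopf family whose other members block Wnt receptors, had 1138 and 788 normalised counts in the labelled knockouts under IMQ, against 1435 and 1165 in the controls. Untreated, it had 825 and 1054, against 1378 and 1382. The log2 fold changes were -0.45 (SE 0.21, limma adjusted p = 0.259) and -0.57 (SE 0.21, adjusted p = 1.00), so neither passed the test.

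Lgr5, a receptor for R-spondins that raises Wnt signalling, had 460 and 396 normalised counts in the labelled knockouts under IMQ, against 626 and 469 in the controls, without overlap. In untreated epidermis it had 881 and 1456, against 1172 and 1525, and the groups overlapped. Here the male library stood above the female one in both genotypes. The log2 fold changes were -0.34 (SE 0.27, limma adjusted p = 0.480) under IMQ and -0.24 (SE 0.27, adjusted p = 1.00) untreated.

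Fst had 6615 and 8468 normalised counts in the female and male labelled knockouts under IMQ, against 3019 and 4846 in the controls. Both labelled knockouts lay above both controls, and each sex differed the same way. The log2 fold change was 0.97 (SE 0.23, limma adjusted p = 0.0915), a 1.96-fold difference that missed the threshold. With sex as a block, which called 2.45% of all genes under IMQ, the adjusted p was 0.0430. It was 0.00269 with DESeq2, which called 1242 of 14614 genes under IMQ. With edgeR, which called 43, it was 0.10, and with edgeR and sex as a block it was 0.0509. In limma it was 0.168 with plain moderation and 0.235 with each table fitted alone. Leaving out 1 library at a time moved the log2 fold change from 0.63 without the female control (limma adjusted p = 0.264) to 1.31 without the male control (adjusted p = 0.0583). In untreated epidermis Fst had 7570 and 7400, against 7934 and 9043, a log2 difference of -0.18 (SE 0.23, limma adjusted p = 1.00). The labelled knockouts there lay just below the controls. The genotype difference under IMQ minus that in untreated epidermis was 1.15 on the log2 scale (SE 0.32, limma adjusted p = 0.476), the largest of the 9, and the other 8 ran from -0.12 to 0.27. That test called 0 of 14614 genes (0%), with 1472 at an unadjusted p under 0.05, while DESeq2 called 99 and edgeR 0. Fst was not among the 99 (DESeq2 adjusted p = 0.0748).

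**Figure D2:**
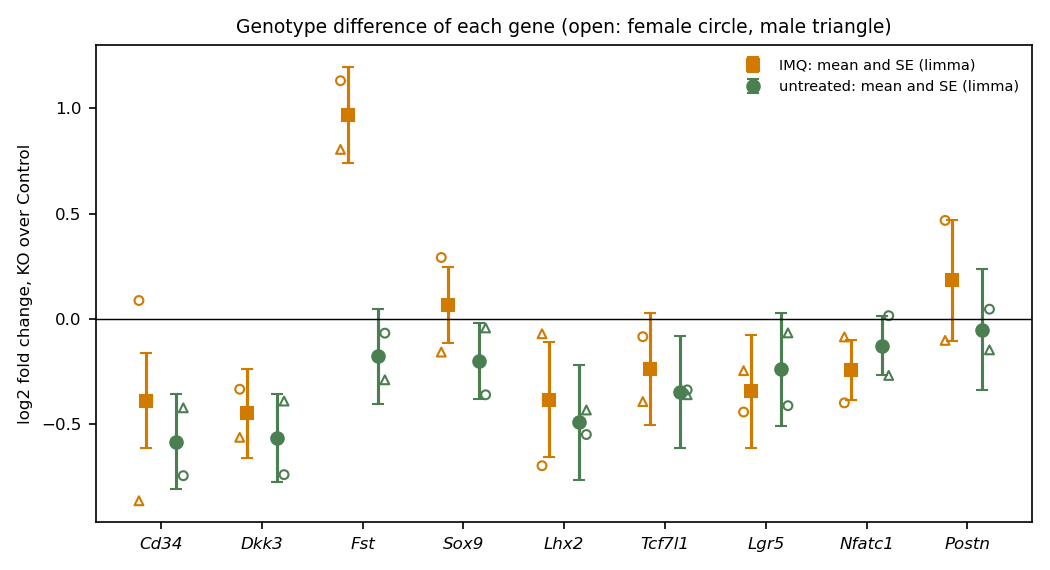
Log2 fold change of the labelled knockout over the control for each gene, under IMQ (squares, left) and untreated (filled circles, right), with the limma standard error. Open circles and triangles are the female and male pairs; Fst under IMQ stands at 0.97, and the other 17 values lie between -0.58 and 0.18.

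Counted together under IMQ, 3 of the 9 genes had both labelled knockouts below both controls (Dkk3, Lgr5 and Nfatc1), where 26.4% of all tested genes did. Fst alone, 1 of the 9, had both above, where 26.6% did. Untreated, 5 of 9 had both below (Cd34, Dkk3, Fst, Lhx2 and Tcf7l1), where 16.4% of all genes did, and 0 had both above, where 17.4% did. A negative log2 fold change was found for 6 of the 9 under IMQ, where 51.2% of all genes had one, and for 9 of 9 untreated, where 50.5% had one. The median log2 fold change of the 9 was -0.24 in each table, beside -0.01 under IMQ and -0.00 untreated for all genes. At an unadjusted p under 0.05 stood 1 of the 9 under IMQ (Fst), where 22.0% of all genes did, and 2 of the 9 untreated (Cd34 and Dkk3), where 4.46% did. The 9 were chosen with earlier results of these data known, so these counts describe them and carry no test.

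IMQ was set against untreated epidermis in CPM, from recovered reads and TMM factors of all 8 libraries. Reads were used because the deposited tables had been scaled separately, and no test of IMQ against untreated was made. If the controls were +/+ with IMQ and +/- without it, as the sample labels say, treatment and allele number cannot be told apart in them. Nfatc1 showed the widest difference. It averaged 50.4 ± 8.45 CPM in IMQ and 130 ± 14.9 CPM in untreated labelled knockouts, and 59.3 ± 0.0947 CPM in IMQ and 144 ± 4.38 CPM in untreated controls (SD, n = 2 each). That made 0.389 times the untreated level in the labelled knockouts and 0.414 times in the controls, and all 4 IMQ libraries lay below all 4 untreated ones.

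Lgr5 averaged 13.9 ± 1.36 CPM in IMQ and 30.8 ± 10.6 CPM in untreated labelled knockouts, against 17.9 ± 3.74 and 36.2 ± 6.79 CPM in the controls (SD, n = 2 each). Its ratio to untreated was 0.474 in the labelled knockouts, against 0.50 in the controls, and in both it was farther from 1 in the male than in the female pair. Lhx2 was at 0.705 times its untreated level in the labelled knockouts and 0.644 times in the controls, and Sox9 at 0.857 and 0.700 times. Both had their IMQ libraries below their untreated libraries in each genotype. Tcf7l1 ran the other way, at 4.95 ± 0.899 CPM in IMQ and 3.04 ± 0.0411 CPM in untreated labelled knockouts, against 5.95 ± 1.86 and 3.94 ± 0.0161 CPM in the controls (SD, n = 2 each). Its 4 IMQ libraries lay above its 4 untreated ones.

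Fst differed in sign between the genotypes here too, which is the difference of genotype differences in the same 8 libraries, read the other way. It averaged 246 ± 45.0 CPM in IMQ and 197 ± 3.82 CPM in untreated labelled knockouts, against 128 ± 41.2 and 228 ± 21.7 CPM in the controls (SD, n = 2 each). Relative to untreated its log2 ratio was 0.31 in the labelled knockouts, against -0.86 in the controls, the second a 0.550-fold level. Dkk3 was at 1.25 and 1.14 times, Cd34 at 0.777 and 0.667 times and Postn at 0.861 and 0.720 times, in labelled knockouts and controls in that order. For Cd34, Dkk3 and Postn the IMQ and untreated libraries of the labelled knockouts overlapped. In the labelled knockouts 4 of 9 genes had both IMQ libraries below both untreated ones and 2 above, where 40.1% and 39.9% of all genes did. In the controls 7 of 9 lay below and 2 above, where 32.3% and 35.3% did. The median log2 ratio of the 9 was -0.22 in the labelled knockouts, against -0.58 in the controls, beside -0.01 and 0.02 for all genes.

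**Figure D3:**
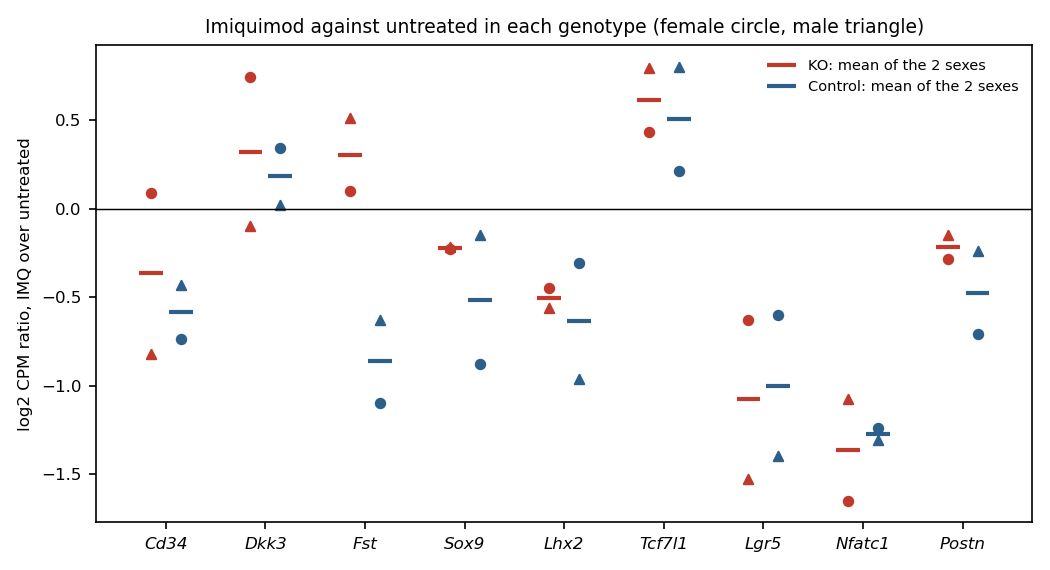
Log2 CPM ratio of IMQ over untreated for each gene, in labelled knockouts (left of each pair) and controls (right), with a circle for the female pair, a triangle for the male pair and a bar for their mean. Nfatc1 lies at -1.36 and -1.27 in labelled knockouts and controls, Lgr5 at -1.08 in labelled knockouts, while Fst lies at 0.31 in labelled knockouts and -0.86 in controls.

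Levels of different genes were compared as CPM per kilobase of exon. The mean over the 8 libraries was 64.4 for Postn, 43.5 for Fst, 28.2 for Sox9, 12.9 for Nfatc1, 10.1 for Dkk3, 8.43 for Cd34, 5.15 for Lhx2, 2.41 for Lgr5 and 1.14 for Tcf7l1. Between neighbours in this order the ranges over libraries overlapped, with 1 exception. The order also differed by treatment. Nfatc1 lay below Dkk3 in all 4 IMQ libraries (5.95 to 7.95 against 7.70 to 14.0) and above it in all 4 untreated ones (16.0 to 19.7 against 6.49 to 11.1). Cd34 likewise lay below Dkk3 in each IMQ library and above it in each untreated one. The exception was that Sox9 at 21.7 to 40.1 lay above Nfatc1 at 5.95 to 19.7 in every library. Exonic length ran from 3.36 kb for Dkk3 to 10.3 kb for Lgr5 in the GENCODE vM21 annotation of GRCm38.

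Of 20 other listed genes of the bulge and upper follicle 0 were called in either table, with or without sex as a block. A negative log2 fold change was found for 15 under IMQ (median -0.23), where 51.2% of all genes had one, and for 17 untreated (median -0.16), where 50.5% had one. Both labelled knockouts lay below both controls for 6 of the 20 under IMQ and 7 untreated, where 26.4% and 16.4% of all genes did. They lay above for 2 and 1, where 26.6% and 17.4% of all genes did. Krt15 had 21731 and 28626 normalised counts in the labelled knockouts under IMQ, against 42348 and 32498 in the controls, a log2 difference of -0.57 (SE 0.20, limma adjusted p = 0.163). It was at 0.231 times its untreated CPM in the labelled knockouts and 0.273 times in the controls. Lgr6, a relative of Lgr5 in the isthmus, was at -0.98 (SE 0.38, adjusted p = 0.193), and Runx1, a factor that drives bulge cells into growth, at 0.50 (SE 0.21, adjusted p = 0.218) under IMQ. The 11 tested outer root sheath and infundibulum genes had 0 calls and a median of 0.21 under IMQ and -0.06 untreated. Krt6b, a keratin of the companion layer and of stressed epidermis, had 30863 and 16160 normalised counts in the labelled knockouts under IMQ, against 729 and 6770 in the controls (3.33, SE 0.91, adjusted p = 0.117). Its relative Krt6a was at 0.81 (SE 0.24, adjusted p = 0.127), and Krt17, a keratin of the outer root sheath, at 0.88 (SE 0.22, adjusted p = 0.102).

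Below the bulge, the hair germ and matrix list had 0 calls among 15 tested genes. A negative log2 fold change was found for 13 under IMQ (median -0.63) and 10 untreated (median -0.06). Of all genes 51.2% and 50.5% had one. Ptch1, the Hedgehog receptor and target, had 344 and 390 normalised counts in the labelled knockouts under IMQ, against 729 and 529 in the controls (-0.76, SE 0.18, limma adjusted p = 0.0895). Foxn1, the hair differentiation factor mutated in nude mice, was at -0.93 (SE 0.24, adjusted p = 0.105) and Bmp4 at -1.12 (SE 0.36, adjusted p = 0.151). Of the hair shaft and inner sheath list 15 of 23 genes had values and 12 were tested, with 0 calls. Of the 12, 8 had a negative log2 fold change under IMQ (median -0.22) and 9 a positive one untreated (median 0.38). Both untreated labelled knockouts lay above both controls for 5 of the 12, where 17.4% of all genes did. Krt31, a hair keratin, had 0 reads in both labelled knockouts under IMQ, against 3 and 6 reads in the controls, and 22 and 19 reads in the untreated labelled knockouts, against 20 and 15 in the untreated controls. The inner sheath protein gene Tchh was at 0.81 (SE 0.23, adjusted p = 0.124) under IMQ.

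The Wnt list, the pathway of Lgr5, Tcf7l1 and the Dickkopf proteins, had 0 calls among 37 tested genes in either table. A negative log2 fold change was found for 28 under IMQ (median -0.30) and 18 untreated (median 0.01). Of all genes 51.2% and 50.5% had one. Wnt16, a ligand, had 5.96 and 11.4 normalised counts in the labelled knockouts under IMQ, against 34.0 and 60.5 in the controls, a log2 difference of -2.32 (SE 0.42, limma adjusted p = 0.0714, 0.0280 with sex as a block). Untreated, it had 49.7 and 72.1, against 178 and 175 (-1.54, SE 0.42, adjusted p = 0.646). Dkkl1 was the other Wnt list gene lower with sex as a block under IMQ (-0.82, SE 0.33, adjusted p = 0.212 without and 0.0492 with the block). Wnt4 was at -0.87 (SE 0.22, adjusted p = 0.103) and the feedback inhibitor gene Nkd2 at -1.71 (SE 0.44, adjusted p = 0.105) under IMQ. In untreated epidermis Notum, which encodes an enzyme that inactivates Wnt ligands, was at 1.95 (SE 0.57, adjusted p = 0.709) on 3.46 to 25.8 normalised counts, and the Dickkopf receptor gene Kremen2 at 1.33 (SE 0.42, adjusted p = 0.850).

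In the BMP and activin list, whose ligands follistatin binds, 0 of 32 tested genes were called, with medians of -0.06 under IMQ and -0.03 untreated. Id1, a direct target of BMP receptors, was the list's gene most like Fst. It had 5487 and 7722 normalised counts in the labelled knockouts under IMQ, against 2451 and 3718 in the controls, so the groups did not overlap. The log2 fold change was 1.11 (SE 0.25, limma adjusted p = 0.0878), and 0.0200 was the adjusted p with sex as a block. Untreated, it had 5999 and 6368, against 6378 and 8753 (-0.27, SE 0.25, adjusted p = 1.00). Inhbb, an activin subunit gene, was at 1.03 under IMQ (SE 0.31, adjusted p = 0.130). Fstl3, which encodes another activin trap, was at -0.65 (SE 0.24, adjusted p = 0.176). In untreated epidermis Tgfbi, a matrix protein gene induced by TGF-beta, was at -0.31 (SE 0.11, adjusted p = 0.984).

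Around Nfatc1, the NFAT and calcineurin list had 0 calls among 12 genes and medians of -0.02 under IMQ and -0.04 untreated. Rcan1, a calcineurin inhibitor gene that is itself an NFAT target, was at 0.42 under IMQ (SE 0.17, limma adjusted p = 0.204), Nfatc2 at -0.56 (SE 0.19, adjusted p = 0.155) and Rcan2 at -1.59 (SE 0.56, adjusted p = 0.168). Among 11 tested relatives and cofactors of Sox9 and Lhx2, with 0 calls, the medians were -0.36 under IMQ and 0.03 untreated. Ldb1, the LIM-domain cofactor of Lhx2, was at -0.36 (SE 0.13, adjusted p = 0.185) under IMQ, and Sox6 at -1.50 (SE 0.38, adjusted p = 0.105). Sox7 was higher by 0.78 under IMQ (SE 0.26, adjusted p = 0.155) and by 0.71 untreated (SE 0.26, adjusted p = 1.00), and Sox21 by 0.47 and Sox12 by 0.90 untreated (adjusted p = 0.879 and 0.666). The 12 basal interfollicular genes had 0 calls. Of all genes 51.2% had a negative log2 fold change under IMQ and 50.5% untreated. Of these 12, 8 had one under IMQ (median -0.18) and 12 untreated (median -0.14). Among them Dst, a hemidesmosome linker gene, was at -0.85 under IMQ (SE 0.15, adjusted p = 0.0657, 0.0405 with sex as a block).

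Markers of other cells had 0 calls as well. The median log2 fold change under IMQ was -1.17 for 17 tested dermal fibroblast genes, -1.42 for 12 endothelial, -1.28 for 7 smooth muscle, -0.22 for 9 dermal papilla, -0.60 for 6 melanocyte and 0.03 for 6 mast cell genes. Untreated, the medians were -0.42, 0.40, -0.18, 0.17, -0.09 and 0.06 in the same order. Endothelial markers under IMQ summed to 49.1 CPM in the female and 13.2 CPM in the male control. The labelled knockouts had 12.8 and 18.5 CPM. Melanocyte markers summed to 96.6 and 32.2 CPM in the controls, against 33.7 and 35.9 CPM. In the male pair both sums were higher in the labelled knockout. Smooth muscle markers summed to 2.58 and 4.06 CPM in the labelled knockouts under IMQ, against 15.2 and 7.08 CPM in the controls. The fibroblast sums given above were also lower in the labelled knockout of each sex. Both labelled knockouts lay below both controls for 6 of 7 smooth muscle, 7 of 17 fibroblast and 5 of 12 endothelial genes. They did so for 3 of 9 dermal papilla, 1 of 6 melanocyte and 1 of 6 mast cell genes, where 26.4% of all genes did. Emcn, an endothelial sialomucin gene, had 0.994 and 0.951 normalised counts in the labelled knockouts under IMQ, which is 1 read in each library. The controls had 68.8 and 12.6 (log2 fold change -3.96, SE 0.86, limma adjusted p = 0.0818). The fibroblast list's most abundant gene, the collagen gene Col1a2, stood at 21.5 and 620 CPM in the labelled knockouts under IMQ, against 69.6 and 966 CPM in the controls. The part of these cells in the values of the 9 genes was not tested.

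**Figure D4:**
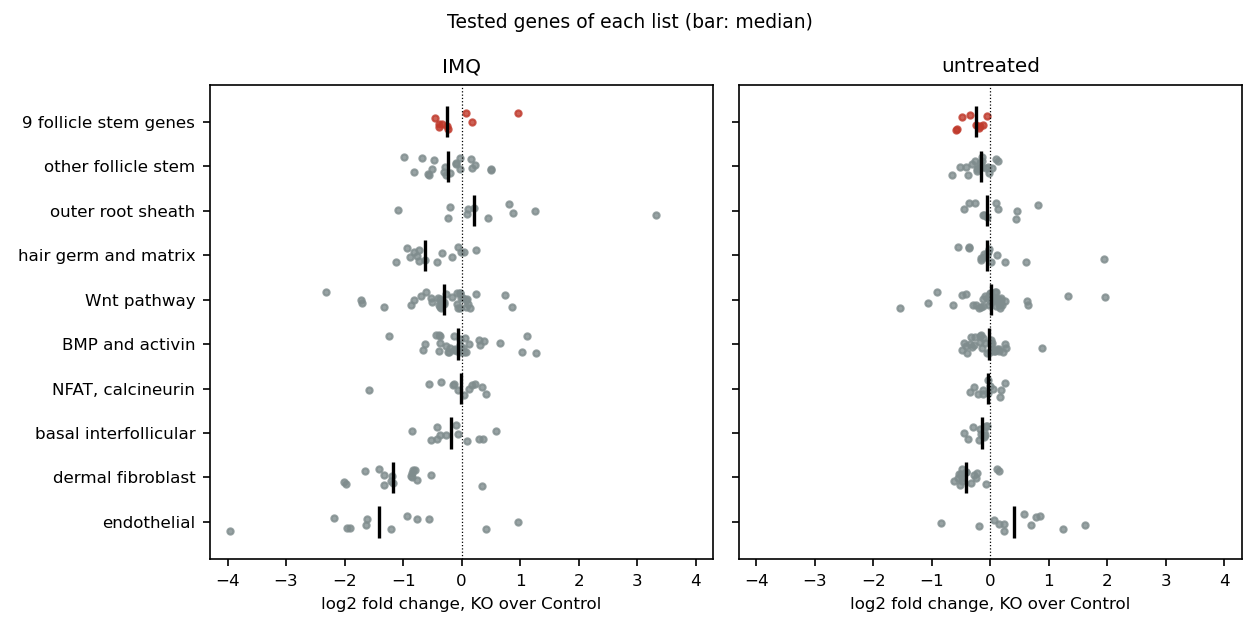
Log2 fold change of labelled knockout over control for every tested gene of 10 lists, under IMQ (left) and untreated (right), each point a gene and each bar a list's median. The 9 follicle stem genes have a median of -0.24 in both panels, and the dermal fibroblast and endothelial lists have medians of -1.17 and -1.42 under IMQ. The endothelial sum under IMQ was 49.1 CPM in the female and 13.2 CPM in the male control, against 12.8 and 18.5 CPM in the labelled knockouts.

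For each of the 9 genes, likeness to 12037 protein-coding genes with a mean of at least 1 CPM, provisional gene names left out, was measured as Pearson's r of log2 CPM over the 8 libraries. The points share their libraries and the split by treatment, so r describes these libraries only. Fst was most like Id1 (r = 0.98) and then Rsrc2 (0.95). Nfatc1 was most like Phkb and Nexn (both r = 1.00), and Lgr5 most like Zfp820 and Nynrin (both 0.99). The closest genes were Crispld1 for Lhx2 (1.00), Vit for Cd34 (0.97), Atp6v1e1 for Dkk3 (0.98), Eid3 for Sox9 (0.98), Clptm1 for Tcf7l1 (0.98) and Cck for Postn (0.94). Second were Zfp874a for Lhx2 (0.97), Slc38a7 for Cd34 (0.95), Zfp169 for Dkk3 (0.95), Nfat5 for Sox9 (0.97), Ecm2 for Tcf7l1 (0.98) and Slc35a2 for Postn (0.94). Among the 9 themselves r was highest between Lgr5 and Nfatc1 (0.87) and lowest between Lgr5 and Tcf7l1 (-0.69).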

How the data were processed

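Polyadenylated RNA from 8 epidermal libraries was sequenced as 100-bp paired reads, per the labels' protocols. The submitters' processing notes name the genome build mm10, the aligner STAR 2.5.2a, Trimmomatic 0.35, R 3.6.1 and DESeq2 1.24.0. The sources used here name no read counter or annotation. The authors deposited a signal: reads per gene over a size factor for that library, in 2 separately scaled tables. All values were whole multiples of 1 step within 0.001 read, which gave the recovered reads (16902 genes, 28.6 to 43.1 M per library). At 111 to 196 reads, Tcf7l1 carries the largest counting error of the 9.

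Genotype was tested with limma 3.58.1 (R 4.3.3; trend, robust) on log2 of the deposited value plus 1, with 4 group means over 8 libraries, for genes with a mean of at least 10 in either table. Fold changes of low genes are understated on that scale. Alternatives were edgeR 4.0.16 and DESeq2 1.42.0 on recovered reads, sex as a block, other pseudocounts, filters and scalings (TMM, quantile), moderation without trend, fits within 1 table, and each library left out. Sex pairs the groups: female minus male differences correlated between groups by 0.145 to 0.463 across genes. IMQ ratios used CPM plus 0.5. The pipeline was tested on simulated data. Python 3.11.15, numpy 2.4.6, pandas 2.3.3 and matplotlib 3.10.9 were used.

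The 9 genes and all lists were chosen with earlier results of these data known. Genes named were the 9, up to 3 per list and genotype comparison with an unadjusted p under 0.05 and the widest change, the most abundant marker of a cell type and the 2 genes most like each of the 9. Dkkl1, Robo4 and Twist2 were named after their values were seen. Positions and lengths are from GENCODE vM21 (GRCm38), which held 16745 symbols, and sequences from RefSeq (GRCm38.p6).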

Additional observations from a re-analysis of the deposited data

Results flagged for a closer look

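Fst stood out because its genotype difference had opposite signs under the 2 conditions in both sexes: 1.13 and 0.81 on the log2 scale in the female and male pairs under IMQ, and -0.07 and -0.29 in the untreated pairs. The difference of the differences was 1.15 (SE 0.32), with a limma adjusted p of 0.476 over all genes, so it did not pass the threshold. The same 8 libraries read by treatment gave a log2 CPM ratio of IMQ over untreated that was positive in both labelled knockout pairs. In both control pairs it was negative, a gap of 1.17. That gap is the difference of the differences again, in CPM, and so is not a second result. The labelled control genotype also differed between the conditions, and its part cannot be told apart from that of IMQ.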

How the results depend on the processing

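With 2 libraries per group, counts of calls over all genes moved with the model more than the values of the 9 genes did. Under IMQ the 64 calls became 0 with plain moderation and with each table alone, 358 with sex as a replicate block, 292 with edgeR and the block, 43 with edgeR, 1242 with DESeq2, and 0 to 299 with a library left out. Untreated, 0 calls became 5 with a pseudocount of 5, 8 with each table alone, 8 with the replicate block, 6 with edgeR and the block, 89 with DESeq2, and 0 to 2 with a library left out. The difference of the genotype effects had 0 calls and 99 with DESeq2. Limma with the block and DESeq2 added Fst under IMQ and no other call among the 9. The cause was not tested.

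The median IMQ ratio of the 9 in labelled knockouts, -0.22, was -0.34 with library totals alone and -0.50 to -0.026 with a library left out. Signs turned when a library was left out, where a lone library is assumed to vary like the others. Under IMQ the genotype values ran from -0.077 to 0.21 for Sox9, -0.83 to 0.059 for Lhx2, -0.57 to 0.091 for Tcf7l1 and -0.11 to 0.47 for Postn. Untreated they ran from -0.43 to 0.031 for Sox9, -0.60 to 0.12 for Lgr5 and -0.40 to 0.30 for Postn. The difference of effects ran from -0.16 to 0.55 for Cd34, -0.15 to 0.38 for Dkk3, -0.34 to 0.55 for Lhx2, -0.22 to 0.44 for Tcf7l1, -0.47 to 0.26 for Lgr5, -0.28 to 0.047 for Nfatc1 and -0.11 to 0.58 for Postn. The IMQ ratio of Postn in labelled knockouts ran from -0.57 to 0.13. Other values kept their sign but moved by over 1.5 times. Under IMQ the genotype value of Cd34 was -0.74 without the female and -0.037 without the male labelled knockout, that of Dkk3 -0.71 and -0.18, and that of Nfatc1 -0.080 and -0.40. Lgr5 ran from -0.55 to -0.14 there. Untreated, Nfatc1 was -0.24 without the female and -0.013 without the male labelled knockout, and Fst ran from -0.27 to -0.084. The difference of effects ran from 0.036 to 0.50 for Sox9. The IMQ ratio in labelled knockouts ran from -0.70 to -0.026 for Cd34, 0.072 to 0.57 for Dkk3, 0.12 to 0.49 for Fst and -0.30 to -0.15 for Sox9. In controls it ran from 0.029 to 0.34 for Dkk3, -1.20 to -0.53 for Fst, -1.08 to -0.20 for Lhx2, -0.72 to -0.23 for Postn, -0.74 to -0.29 for Sox9 and 0.21 to 0.80 for Tcf7l1. Depth limits Tcf7l1 most.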
